A study of Caenorhabditis elegans with 2 samples.

Results

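The right end of Caenorhabditis elegans chromosome II carried far more peaks in an NHR-42::EGFP precipitation than any other chromosome end. The stretch runs from position 13400000 of chromosome II (build ce11) to the end of the chromosome at 15279421 and is 1.88 Mb long. Its members were chosen by their measured positions. They are the 277 of 2058 peaks in the series lists whose summit, the point of highest signal, lies at or beyond that start. Of the members, 197 came from the conservative list of the series and 80 from the second series list, where they overlapped no conservative peak. The remaining 230 peaks of chromosome II, hereafter the rest of II, served for comparison. Because high density led to the choice of the stretch, its density is given as a description and was not tested.

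Chromatin was taken from whole L4 larvae, the last larval stage, aged 50 h, of strain OP351. These worms carry the integrated transgene wgIs351, a fosmid (P000009_D03) with nhr-42 fused to TY1, EGFP and 3xFLAG tags plus a functional unc-119 copy, in an unc-119(tm4063) mutant background. The cultures had been synchronised by bleaching and starvation at the L1 stage, chromatin was sonicated to 200 to 800 bp, and the tagged protein was precipitated with an antibody to GFP. There are 2 biological replicates of this single strain and stage, so no group of worms is compared with another, and a peak is a place that the authors' processing called enriched. The labels also name a possible control experiment, which was not analysed here, so whether control DNA is also higher in this stretch was not tested. Peaks in whole animals average over all tissues.

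Nuclear hormone receptors are transcription factors that bind short DNA motifs near the genes they regulate, and nematodes have an expanded family of them. In chromatin immunoprecipitation, peaks of such factors usually gather in promoters, just upstream of genes. Strongly transcribed genes and small RNA genes are also often recovered in worm experiments of this kind. The irreproducible discovery rate (IDR) used to make the lists keeps peaks whose rank is repeatable between 2 sets of reads. Each list comes as ranked peaks, which include weak ones, and as thresholded peaks, which passed that criterion with a score of at least 830 on a scale capped at 1000. The signal value of a peak is the authors' own, and its unit is not stated in the sources used here.

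The sequences around 7 summits show what kinds of DNA lie under members of the stretch. They are the strongest member, the strongest promoter member with no repeated sequence, the strongest in an exon, in an intron and in intergenic DNA, the member with the most copies in the genome, and the last one before the chromosome end. Each is the 101 bases centred on the summit, on the + strand of the RefSeq WBcel235 assembly, whose chromosomes are named and sized as in ce11. Capitals mark matches to any of 8 short words on either strand. The words were the nuclear receptor half-site AGGTCA, the GATA site TGATAA, the E-box CACGTG, the telomere repeat unit TTAGGC, the splice acceptor word TTTCAG, the word GTTCGA from the inner promoter of tRNA genes, the repeat GAGAGA and the word GCGCG.
mog-4 promoter, chrII:14561814-14561914: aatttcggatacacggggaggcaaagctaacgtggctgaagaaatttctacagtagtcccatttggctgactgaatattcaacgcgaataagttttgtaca
cmtr-1 promoter, chrII:15025908-15026008: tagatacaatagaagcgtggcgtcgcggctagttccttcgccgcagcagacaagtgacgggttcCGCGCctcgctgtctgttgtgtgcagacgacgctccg
agl-1 exon, chrII:14350956-14351056: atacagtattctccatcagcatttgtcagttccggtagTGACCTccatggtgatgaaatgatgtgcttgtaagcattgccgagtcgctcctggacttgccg
sre-13 intron, chrII:14635376-14635476: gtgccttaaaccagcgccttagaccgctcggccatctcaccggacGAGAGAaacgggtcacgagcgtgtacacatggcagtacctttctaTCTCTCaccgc
intergenic, chrII:14822554-14822654: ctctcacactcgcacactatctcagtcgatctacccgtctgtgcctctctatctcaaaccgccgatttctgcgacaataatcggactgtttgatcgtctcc
xrn-2 intron, chrII:14163539-14163639: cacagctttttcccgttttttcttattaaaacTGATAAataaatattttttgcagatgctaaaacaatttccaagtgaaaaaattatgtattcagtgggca
rga-9 exon, chrII:15273004-15273104: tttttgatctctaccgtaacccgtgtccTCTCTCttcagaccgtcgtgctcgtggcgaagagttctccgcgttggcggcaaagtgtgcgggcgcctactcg

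The mog-4 and intergenic windows hold none of the 8 words. The first 41 bases of the sre-13 window belong to a tRNA gene inside the intron (chrII:14635335-14635416). The edge of that gene with the higher position lies 10 bp before the summit, and its strand is not given here. The xrn-2 window is low in G and C (27.7%), and its 24-base words have a median copy number of 148.5 across the genome, whereas the cmtr-1 window (60.4% G and C) and the agl-1, intergenic and rga-9 windows are single-copy throughout.

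Peak density changed at the start of the stretch and stayed high up to the chromosome end. The stretch held 147 peaks per Mb and the rest of II 17.2 per Mb, a ratio of 8.59. It makes up 1.87% of the 6 chromosomes and held 13.5% of all peaks, and it makes up 12.3% of chromosome II and held 54.6% of that chromosome's peaks. The conservative list alone gave 105 peaks per Mb in the stretch and 13.9 in the rest of II, and the second list gave 123 and 15.5. The other 11 chromosome ends of the same length had 11.2 to 23.4 peaks per Mb, and the left end of chromosome II had 15.4. The density was therefore not shared by chromosome ends in general in these lists.

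**Figure D1:**
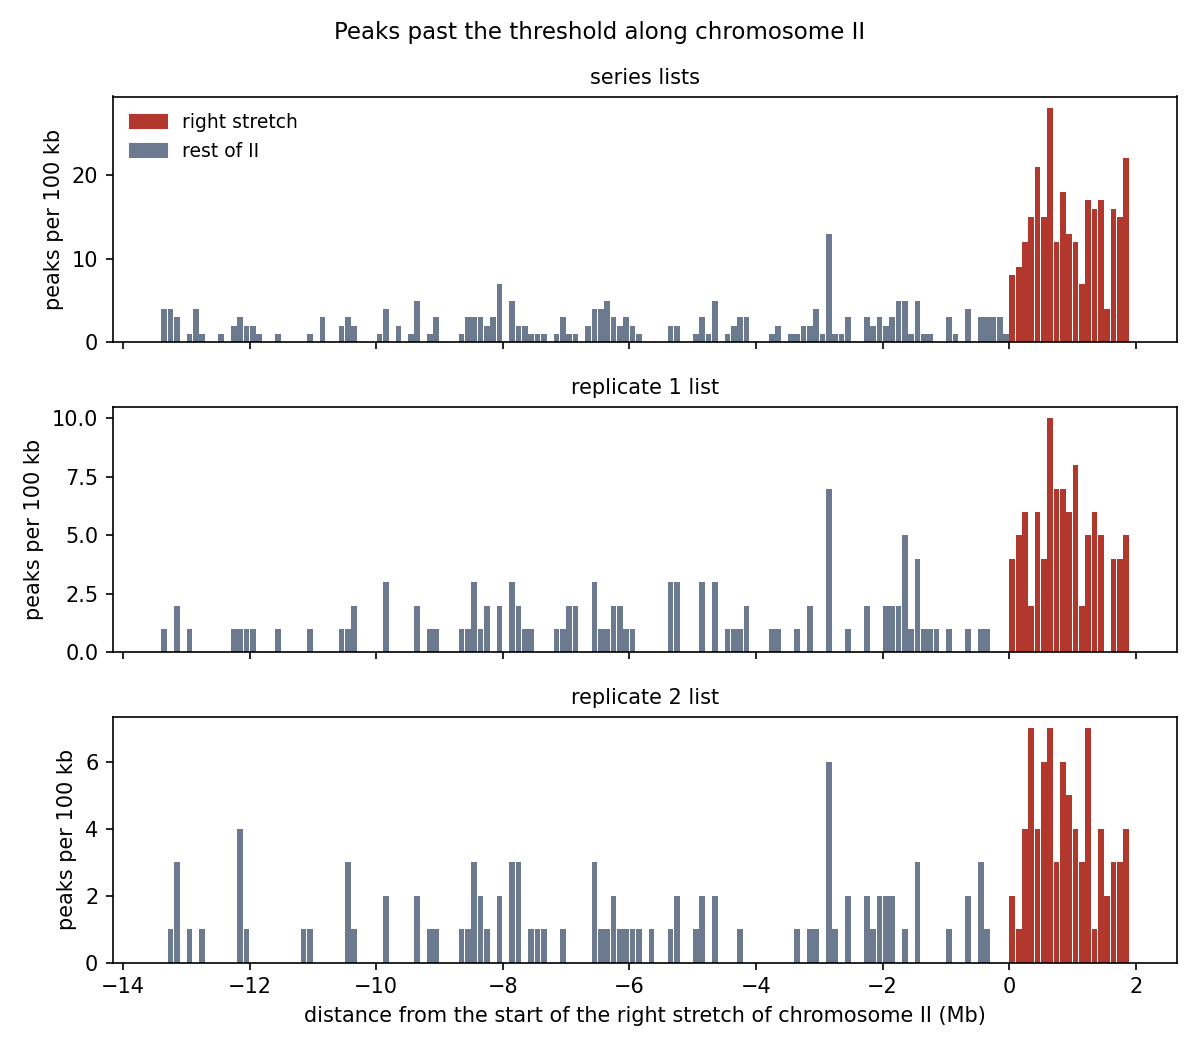
Number of thresholded peaks in each 100-kb bin of chromosome II (y axis) against the distance of the bin from the start of the right stretch (x axis, Mb), for the series lists and for each replicate's own list. All 19 bins of the right stretch hold 4 or more series peaks, and the bins left of it hold a median of 1; the last bin is 0.0794 Mb long.

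Along the stretch the members were spread widely rather than piled at a few sites. The 19 bins of 100 kb inside it held 4 to 28 members (median 15) and none was empty. The 134 bins of the rest of II held 0 to 13 peaks (median 1), and 42 were empty. Cut into 3 equal pieces from left to right, the stretch held 87, 94 and 96 members, with median signals of 82.9, 84.0 and 81.5. Neighbouring summits lay a median of 3554 bp apart in the stretch and 29158 bp apart in the rest of II, and 47 of 276 gaps in the stretch (17.0%) against 22 of 229 in the rest of II (9.61%) were under 1 kb.

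The start itself falls in a gap of 125409 bp between the nearest peaks on either side. Inside, the first members were at chrII:13460789-13461088, upstream of pqn-27, which encodes a protein rich in glutamine and asparagine (series signal 115; 56.5 in replicate 1 and 67.8 in replicate 2), and at chrII:13462034-13462333, upstream of E01G4.3 (88.0; 69.1 and 30.4). Outside, the nearest peaks were at chrII:13335380-13335679, in intergenic DNA near the mitochondrial ribosomal protein gene mrpl-20 (101; 54.5 and 45.5), and at chrII:13291415-13291714, in an intron of Y48C3A.5 (82.3; 39.7 and 45.7). The peaks just inside and just outside the start thus had similar signals. Of the 2 inside, 1 passed the threshold in both replicates and 1 in replicate 1 alone, and the 2 outside passed it in neither. The other end was filled almost to the tip: the last member, in an exon of rga-9, had its summit 6367 bp from the end of the chromosome (94.5; 52.8 and 49.4).

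Each replicate's own list also showed an excess. In replicate 1, 96 thresholded peaks lay in the stretch and 110 in the rest of II, or 51.1 and 8.21 per Mb. In replicate 2 there were 76 and 96, or 40.4 and 7.16 per Mb. The excess was thus 6.22-fold in replicate 1 and 5.64-fold in replicate 2. Of the replicates' own thresholded peaks in the stretch, 81 of 96 (84.4%) and 71 of 76 (93.4%) overlapped a series peak. The series lists come from the same alignments, and this share is not given for the rest of II. In the other direction, 29.6% of members overlapped a thresholded peak of replicate 1 and 26.7% one of replicate 2. In the rest of II these shares were higher, 42.2% and 38.7%.

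The ranked peaks, most of which are weak, were far less concentrated. Replicate 1 had 999.8 ranked peaks per Mb in the stretch and 681 in the rest of II (ratio 1.47), and replicate 2 had 979 and 763 (ratio 1.28). What differed was how many of them passed the threshold. In replicate 1, 5.11% of 1879 ranked peaks in the stretch passed (exact 95% interval 4.16 to 6.20%), against 1.21% of 9119 in the rest of II (0.992 to 1.45%) and 1.37% over all chromosomes. In replicate 2, 4.13% of 1840 passed in the stretch (3.27 to 5.14%), against 0.939% of 10226 in the rest of II (0.761 to 1.15%) and 0.955% over all chromosomes. The passing peaks are the contrast on which the stretch was chosen, so nothing is read from these shares. The intervals cover counting error only.

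Weak peaks in the stretch had a higher signal than weak peaks elsewhere, in both replicates. Ranked peaks below the threshold of replicate 1 had a median signal of 22.0 in the stretch and 16.3 in the rest of II (ratio 1.34, 1775 and 9005 peaks). In replicate 2 the medians were 23.8 and 17.5 (ratio 1.36, 1758 and 10127 peaks). The 11 other chromosome ends gave ratios to the rest of their chromosomes of 0.949 to 1.02 in replicate 1 and 0.963 to 1.05 in replicate 2, so no other end came near the right end of II. These weak peaks are not separate from the members, because ranked peaks at members below a replicate's own threshold are among them. Only 1573 ranked peaks of the stretch in replicate 1 and 1549 in replicate 2 overlapped no series peak. Replicate ratios for those peaks alone are not given. In the series lists, ranked peaks that overlap no series peak past the threshold had medians of 35.0 and 23.6 (ratio 1.48). The stretch was also proposed with a step in weak-peak signal already known, so these ratios are descriptions and not independent of that choice.

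**Figure D2:**
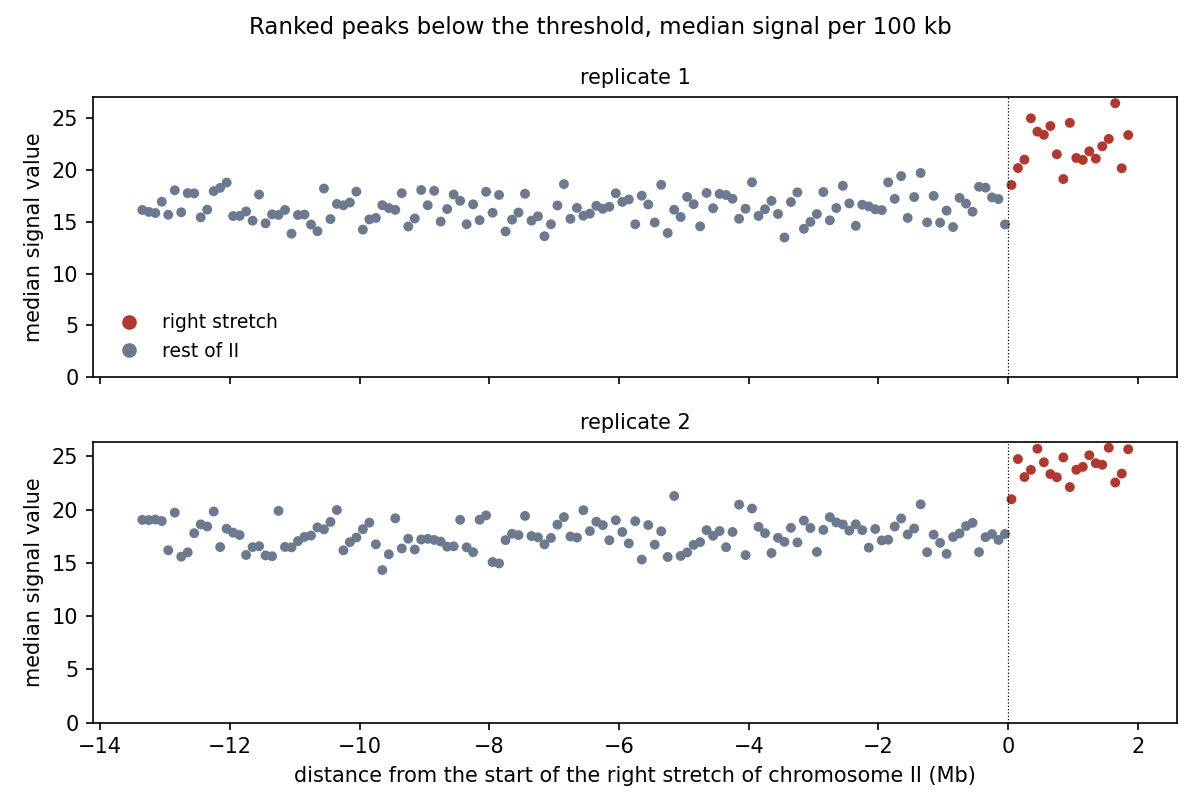
Median signal value of ranked peaks below the threshold in each 100-kb bin (y axis, the authors' units, from 0) against distance from the start of the right stretch of chromosome II (x axis, Mb), for each replicate. The points are higher right of the dotted line, at 18.5 to 26.4 in replicate 1 and 21.0 to 25.8 in replicate 2, up to the chromosome end. In replicate 1 they rise over the first bins.

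Weak signal rose from the start of the stretch, abruptly in replicate 2 and over several bins in replicate 1. In replicate 1 the bin medians from the start inward were 18.5, 20.2, 21.0 and 24.9. From the start outward they were 14.7, 17.2, 17.3 and 18.3, so the first bin inside was close to a bin outside. In replicate 2 the medians were 21.0 and 24.8 in the first 2 bins inside and 17.7 and 17.2 in the nearest 2 bins outside. Across chromosome II the bins overlapped little: 7 of the 134 bins of the rest of II reached the lowest bin of the stretch in replicate 1, and 1 of 134 in replicate 2. In the 3 equal pieces from left to right, the weak-peak medians were 21.6, 21.7 and 22.6 in replicate 1 and 23.7, 23.9 and 23.9 in replicate 2. The level thus differed little between the pieces, although single bins varied more. Over ranked peaks whose 24-base words are all single-copy in the reference genome, the ratio of the stretch to the rest of II was 1.38 in replicate 1 and 1.41 in replicate 2. The peak lists give no depth or input signal, so it cannot be told from them whether the rise belongs to the precipitated DNA alone.

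The members themselves were weaker than peaks of the rest of II, not stronger. Conservative members had a median series signal of 89.0 against 103.9 in the rest of II. In the ranked peaks of the replicates that they overlap, the medians were 45.2 against 52.2 in replicate 1 and 47.6 against 55.1 in replicate 2, ratios of 0.867 and 0.864. Members of the second list had nearly the same signal as such peaks of the rest of II, 75.6 against 74.5. The upper part of the distribution differed most: the upper quartile of all members was 97.4 against 131 in the rest of II, while the lower quartile was 72.7 against 76.0. Signals under 20 occurred in 6 members and 8 peaks of the rest of II, although these passed the threshold.

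Set against the weak peaks around them, members stood out less. The local median, that is the median signal of ranked series peaks on the same side of the start that overlap no series peak past the threshold, was 35.0 in the stretch and 23.6 in the rest of II. Conservative members reached a median of 2.55 times their local median, against 4.40 times in the rest of II. Within the replicates, each measured against its own weak peaks, the medians were 2.06 against 3.19 times in replicate 1 and 2.00 against 3.15 times in replicate 2. The weak peaks of a replicate include ranked peaks at members that did not pass its own threshold. Only 51 of the 277 members (18.4%) reached 3 times the local median, against 204 of 230 peaks (88.7%) in the rest of II.

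A floor set by the local median removed most of the excess, but such a floor is a higher signal in the stretch. At 3 times, the weakest peak kept had a series signal of 105 in the stretch and 71.0 in the rest of II. Part of the fall in the ratio therefore follows from the unequal floors, and no floor of equal signal is reported here. At 3 times the local median or more, the stretch held 27.1 peaks per Mb against 15.2 in the rest of II, a ratio of 1.78. At 5 times or more it held 14 peaks against 75, or 7.45 against 5.60 per Mb (ratio 1.33), and at 10 times or more 3 peaks against 15, or 1.60 against 1.12 per Mb (ratio 1.43). A floor of 2 times left a ratio of 7.23, so most members lay between 2 and 3 times the local median. The thresholded lists of the single replicates went the same way: at 3 times their own local median, 33 against 96 peaks in replicate 1 gave a ratio of 2.45, and 24 against 90 in replicate 2 gave 1.90. With so few strong members, the ratios at the higher floors rest on small counts.

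**Figure D3:**
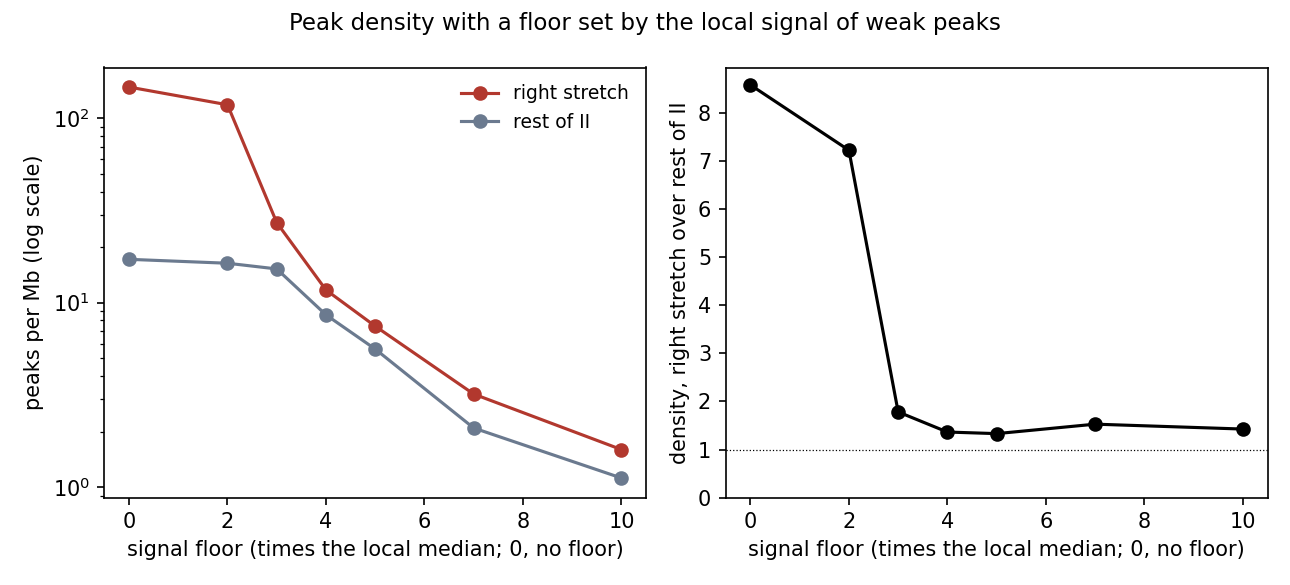
Peaks per Mb on a log scale (left panel) and the ratio of the 2 densities (right panel, from 0, dotted line at 1) for the right stretch and the rest of chromosome II, against the lowest signal a peak had to reach, in multiples of the local median of weak peaks. The ratio is 8.59 without a floor, 7.23 at 2 times and 1.33 to 1.78 from 3 to 10 times. The same multiple is a higher signal in the right stretch, where the local median is 35.0, against 23.6 in the rest of II.

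Support in the single replicates was also lower for members. A thresholded peak of both replicates overlapped 32 members (11.6%, interval 8.04 to 15.9%), against 58 peaks of the rest of II (25.2%, 19.7 to 31.3%). Neither replicate had one at 153 members (55.2%) and at 102 peaks of the rest of II (44.3%). Nearly all members had at least a ranked peak, 269 in replicate 1 and 270 in replicate 2. The score was at its cap in 136 members (49.1%) and in 140 peaks of the rest of II (60.9%).

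**Figure D4:**
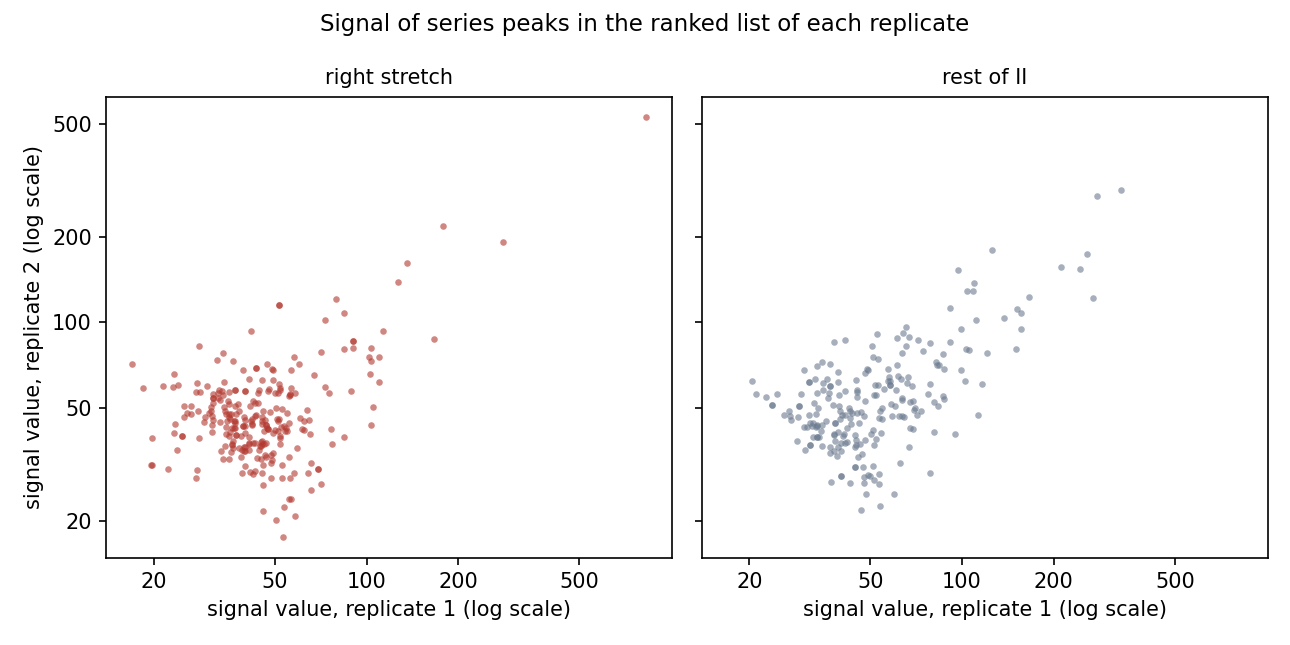
Signal value of the overlapping ranked peak in replicate 1 (x axis, log scale) and replicate 2 (y axis, log scale) for each series peak, 263 in the right stretch (left panel) and 227 in the rest of chromosome II (right panel). Most members form a round cloud (rank correlation 0.09), and the few strong ones lie along the diagonal.

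Over the 263 members with a ranked peak in both replicates, log2 signals correlated with Pearson's r of 0.44, against 0.62 over 227 peaks of the rest of II. By ranks the coefficients were 0.09 and 0.44. Members were kept by a threshold made from these replicate signals and span a narrower range than the rest of II, which by itself can lower such coefficients. These points share their libraries, and neighbouring members can overlap the same replicate peak, so the coefficients are descriptions. Replicate 1 was higher at 122 of the 263 members and at 108 of the 227 peaks of the rest of II, so neither replicate dominated.

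Members lay in promoters less often, and in exons more often, than peaks of the rest of II. The promoter window of a protein-coding gene ended 200 bp into the transcript and began 1000 bp before it. Such windows held 92 member summits (33.2%, interval 27.7 to 39.1%), against 114 in the rest of II (49.6%, 42.9 to 56.2%). Exons held 80 members (28.9%, 23.6 to 34.6%), against 18 peaks (7.83%, 4.70 to 12.1%). Introns held 72 members (26.0%) and 46 peaks (20%), intergenic DNA 30 (10.8%) and 44 (19.1%), and other genes 3 and 8. Promoters cover 23.0% of the stretch and 29.6% of the rest of II, and exons outside them cover 18.3% and 23.6%. The share of sequence available was thus smaller in the stretch for promoter and for exonic summits alike. Promoter summits were less frequent where promoter sequence was also less, whereas exonic summits were more frequent in a smaller share of exon sequence. The intervals of the promoter and exon shares do not overlap between the stretch and the rest of II, but summits that lie close together are not independent.

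**Figure D5:**
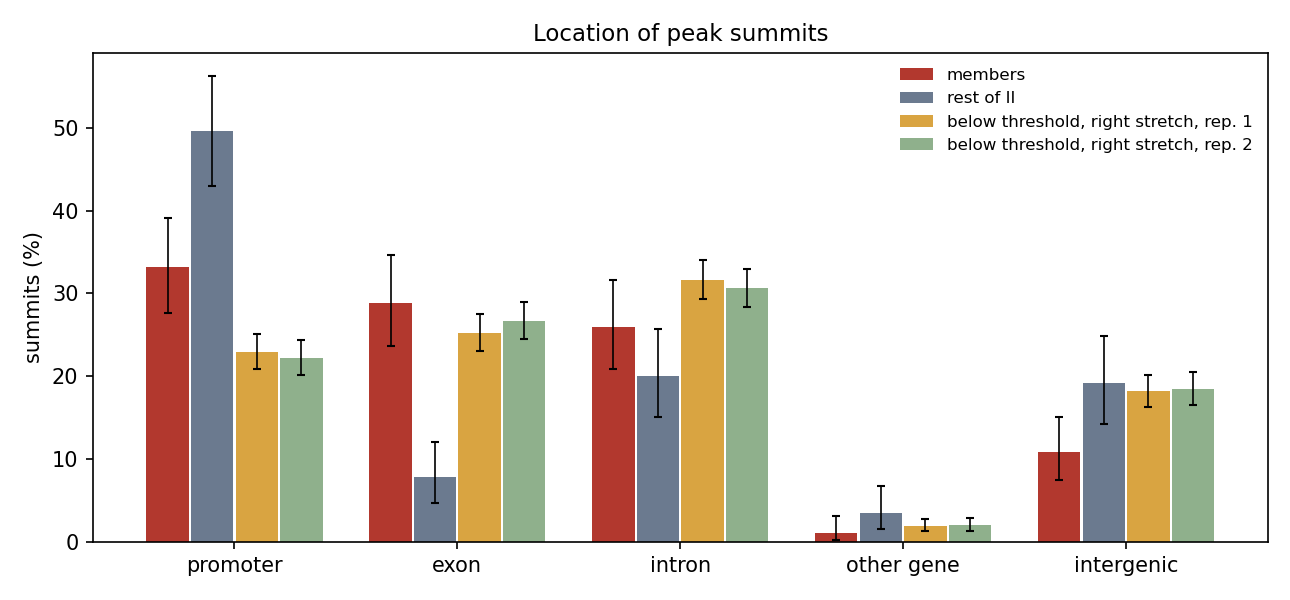
Share of summits (y axis, %) in promoters, exons, introns, other genes and intergenic DNA, in that order of priority, for the 277 members, the 230 peaks of the rest of II, and the stretch's ranked peaks that overlap no series peak in replicate 1 (1573) and replicate 2 (1549). Bars are shares and whiskers exact 95% intervals. In exons the members (28.9%) are near the weak peaks of the same stretch (25.2 and 26.7%), and far above the rest of II (7.83%).

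In promoter and intron shares the members lay between the rest of II and the weak peaks of their own stretch. Their exon share was near that of the weak peaks, and their intergenic share was below both. Ranked peaks of the stretch that overlap no series peak had 22.9% of summits in promoters and 25.2% in exons in replicate 1, and 22.2% and 26.7% in replicate 2. Members differed in location by how far they stood above their surroundings. Of the 51 members at 3 times the local median or more, 28 (54.9%, interval 40.3 to 68.9%) were promoter and 5 (9.80%) exon summits. These shares were close to the 104 (51.0%) and 16 (7.84%) of 204 peaks at that multiple in the rest of II. The sets are unlike, however. The 51 are 18.4% of the members, with a median series signal of 133, and the 204 are 88.7% of the rest of II, with 99.5. Of the 226 members under 3 times, 64 (28.3%, 22.5 to 34.7%) were promoter and 75 (33.2%, 27.1 to 39.7%) exon summits. Likewise 21 of the 32 members thresholded in both replicates (65.6%) were in promoters, but 2 (6.25%) in exons. These subsets were formed after the values had been seen.

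Promoter members had the highest median signal, 91.0, followed by intergenic ones with 86.5, exonic ones with 81.0 and intronic ones with 78.1. A thresholded peak in both replicates was present at 21 of 92 promoter members (22.8%), 3 of 30 intergenic, 5 of 72 intronic (6.94%) and 2 of 80 exonic members (2.50%). The strongest exonic member, in the glycogen debranching enzyme gene agl-1 (chrII:14350856-14351155, shown above), reached a series signal of 130, with 57.7 in replicate 1 and 75.7 in replicate 2. It was followed by members in mltn-5 (126; 56.3 and 58.8), in tag-297 (114; 45.5 and 62.5) and in the arrestin-domain gene arrd-14 (111; 34.0 and 61.6). No exonic member came near the strongest promoter members described next.

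The strongest member was also the strongest peak of the series. It lay 265 bp upstream of mog-4, which encodes a DEAH-box RNA helicase needed for splicing and for the switch from sperm to oocytes (chrII:14561731-14561987, between genes). Its signal was 1343 in the series, 830.2 in replicate 1 and 525.8 in replicate 2, 38.4 times the local median. The median copy number of 24-base words around this summit is 7, so reads from near-identical copies may be included.

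The next 4 members were also in promoter windows. The peak 156 bp upstream of cmtr-1, a cap methyltransferase gene, had a signal of 460 (281 in replicate 1 and 191 in replicate 2), and the snoRNA gene Y53F4B.47 lies within 200 bp of its summit. The peak at F08G2.5, a gene for which no role is given here, had 372 (178 and 219) and lies in the ncRNA gene F08G2.13. The peak upstream of rpb-11, which encodes a subunit of RNA polymerase II, and also in the window of the neighbouring W01G7.4, had 305 (136 and 161). The short-chain dehydrogenase gene dhs-8 followed with 273 (127 and 139), 986 bp from its 5′ end and inside the ncRNA gene K10H10.14. All 4 passed the threshold in both replicates, and the higher replicate differed: replicate 1 was the higher at cmtr-1 and the lower at the other 3.

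The rest of the 15 strongest conservative members had signals between 174 and 257. The highest of these was shared by Y48B6A.1 and rpl-43, a ribosomal protein gene of the large subunit (257; 167 and 87.2). Y54G11A.2 had 214 (113 and 93.4), the glutathione S-transferase gene gst-27 had 211 (79.6 and 121), and the histone H3 gene his-42 had 194 (103 and 81.4). The last of these also lies beside the snRNA gene C47F8.9. At cacn-1, the gene of a cactin orthologue involved in splicing, the signal was 180 (84.4 and 80.5), in sequence with a median of 65 copies. W01D2.3 had 176 (90.5 and 86.0), and the peak shared by elof-1, a transcription elongation factor gene, Y54G11A.17 and lin-7 had 174 (110 and 61.5).

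Outside promoters, 3 of the 15 lay in introns. The sre-13 intron, in a chemoreceptor gene, had 204 (84.0 in replicate 1 and 108 in replicate 2) beside the tRNA gene given above. An intron of daf-5, which encodes a Sno/Ski family co-factor of the dauer TGF-β pathway, had 179 (110 and 75.4). An intron of F01D5.10 with the snoRNA gene F01D5.12 had 178 (51.5 and 115). The F01D5.10 peak was the only 1 of the 15 not past the threshold in replicate 1, and the other 14 were past it in both. In the second list the strongest were C01G12.13 (107; no ranked peak in replicate 1, 52.7 in replicate 2), the citron kinase orthologue gene citk-1 (101; 70.7 and 26.9) and an exon of the patched-related gene ptr-20 (100.4; 23.3 and 65.9), each of which passed the threshold in at most 1 replicate.

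The densest 50 kb of the stretch held 19 members, against at most 11 peaks in any 50 kb of the rest of II. The summits ran from 14002117 to 14050716, across the F01D5 genes and daf-5. Their signals were 50.9 to 179 with a median of 87.7, only 2 were thresholded in both replicates, and 8 in neither. Of these members, 10 lay inside daf-5, a gene of 19089 bp. Apart from the intron summit already given, their series signals were 69.7 to 131. In the F01D5.10 intron, summits about 200 bp apart overlapped the same peak of each replicate, so these 2 members are not separate observations in the replicates.

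Several members in 1 gene were common, and the genes with the most members were long. Among 306 protein-coding genes that overlap the stretch, 143 had a member inside or in the promoter window, 60 had 2 or more and 7 had 5 or more. Genes with 2 or more also included short ones, such as his-42 (411 bp) and gst-20 (1671 bp). These counts follow from the density by which the stretch was chosen, and none are given for the rest of II. Besides daf-5, the genes with the most were spsb-1, a SPRY-domain and SOCS-box gene of 32993 bp with 11 members (58.4 to 95.6), unc-52, the perlecan gene of 37136 bp with 8 (7.51 to 104), and cup-14, a gene of endocytosis by coelomocytes of 16457 bp with 7 (64.3 to 153). These genes were chosen after their values had been seen. At spsb-1, unc-52 and cup-14 no member was thresholded in both replicates, and at daf-5 1 was.

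A larger share of genes had a promoter peak in the stretch than elsewhere. The window of 81 of 305 protein-coding genes there held a member summit (26.6%, interval 21.7 to 31.9%), against 134 of 3144 in the rest of II (4.26%, 3.58 to 5.03%) and 5.26% of 19973 genes over all chromosomes. This follows from the density by which the members were chosen, and nothing is read from it. Of the 92 promoter members, 83 lay in the window of 1 gene and 9 in those of several genes, 7 of them with genes on both strands. A gene with a peak is not shown to be regulated by NHR-42.

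Promoter members were counted in the gene lists with genes in the stretch, beside the 26.6% of all its protein-coding genes. Detoxification genes, mostly a glutathione S-transferase cluster, had 3 of 19 (15.8%, against 2.41% elsewhere): gst-19 with 118 (76.5 in replicate 1 and 42.2 in replicate 2), gst-20 with 100.1 (50.8 and 45.6) and gst-27, given above. Histone genes had 2 of 13 (15.4%, against 23.7% elsewhere), his-42 and a gene named his-15 (WBGene00001889) with 88.7 (46.3 and 45.4). Histone genes are near-identical copies, so their reads may be split or shared among copies. None of 10 chemoreceptor genes (0.739% elsewhere), 3 F-box genes, 2 neuropeptide genes or 1 collagen gene had a promoter member, and the sre-13 member lies in its intron.

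Other lists had single genes in the stretch with members. C-type lectin genes had 1 of 3, clec-145 with 78.7 (36.6 in replicate 1 and 42.3 in replicate 2), and the only nuclear hormone receptor gene of the stretch, nhr-61, had 2 members in its window with 79.0 (56.2 and 28.4) and 70.9 (25.1 and 46.6). The strongest intergenic member lay 4061 bp upstream of nhr-61 (134; 75.01 and 56.3). The only ribosomal protein gene, rpl-43, was among the genes above, while elsewhere 33 of 77 ribosomal protein genes had a peak. No chaperone, homeobox or proteasome gene lies in the stretch. The lists hold too few genes here to compare families.

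A smaller share of summits lay near small RNA genes in the stretch than in the rest of II. Within 200 bp of a tRNA, snoRNA, snRNA or miRNA gene lay 10 member summits (3.61%, interval 1.74 to 6.54%), against 41 summits of the rest of II (17.8%, 13.1 to 23.4%). These shares are taken over all summits, which are much denser in the stretch, and do not mean that its small RNA genes lacked peaks. Peaks were present at 1 of 2 tRNA genes, 4 of 8 snoRNA genes, 2 of 7 snRNA genes and 2 of 5 miRNA genes there, which are small counts. In the rest of II the counts were 24 of 55, 14 of 63, 6 of 9 and 2 of 44. Besides those already named, the snoRNA genes were Y53F4B.48 near gst-27 and F19H8.6 in an intron of mltn-9 (138; 60.01 in replicate 1 and 71.4 in replicate 2), and the second snRNA gene was W07G1.24 (92.1; 42.2 and 52.9). The miRNA hairpin genes were mir-273, in an intron of the phosphodiesterase gene pde-3 (110; 49.0 and 68.7), and mir-5595, at a start of nurf-1, a nucleosome remodelling factor gene (96.4; 98.0 in replicate 1 and no ranked peak in replicate 2). Both replicates passed the threshold at Y53F4B.47, Y53F4B.48, F19H8.6, C47F8.9 and the tRNA gene in sre-13, and at no other small RNA gene of the stretch.

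Members were richer in G and C than the weak peaks around them and similar to peaks of the rest of II. The median share of G and C within 75 bases of the summit was 47.7% in members, 46.4% in the rest of II and 41.1% in the ranked peaks of the stretch without a series peak, in each replicate. Exonic members had 51.3%, promoter members 45.7% and intronic members 44.4%. Repeated sequence was not more common in the stretch: 81 members (29.2%) and 71 peaks of the rest of II (30.9%) had at least 1 repeated 24-base word near the summit, and the median copy number was 2 or more at 23 (8.30%) and 31 (13.5%).

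The short words marked in the sequences above occurred at different rates in the 3 kinds of peak. The 3 words given next were less frequent in members than in the rest of II, and the other 5 differed by under 2 percentage points. On either strand, GCGCG was present within 50 bases of 15.5% of member summits and 23.9% of summits of the rest of II, against 7.31% and 6.58% of the stretch's weak peaks in replicates 1 and 2. For GAGAGA the shares were 8.30%, 16.1%, 4.45% and 3.62% in the same order. Both words were thus between the rest of II and the weak peaks. Their intervals in members and the rest of II overlapped, at 11.5 to 20.3% and 18.6 to 30.0% for GCGCG. For GAGAGA they were 5.34 to 12.2% and 11.6 to 21.5%. GTTCGA, from the tRNA promoter, was near 3.61% of members and 11.3% of summits of the rest of II, while tRNA genes themselves were near 1 and 19 of them.

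The nuclear receptor half-site AGGTCA, seen in the agl-1 window, was near 2.89% of members (8 of 277), 2.61% of summits of the rest of II, and 3.43% and 2.71% of the weak peaks in replicates 1 and 2. TGATAA was near 7.94%, 7.39%, 6.17% and 6.46% in the same order, CACGTG near 4.33%, 3.91%, 3.94% and 2.78%, and the telomere unit TTAGGC near 3.97%, 3.04%, 4.77% and 4.78%. Those 4 words differed little between the sets. The splice acceptor word TTTCAG was near 10.5% of members and 8.70% of summits of the rest of II, against 15.7% and 16.8% of the weak peaks. The words can overlap one another in a window, and a match is a description of the sequence, not evidence of a bound site.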

How the data were processed

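Per the text files deposited with the replicates, the authors made the peak lists of a replicate from its own alignments and those of the series from the alignments of both replicates. The score of each deposited peak is the authors' scaled IDR, capped at 1000. The signal value of each deposited peak is the authors' own, used only within a list or side by side within lists. No peak caller, aligner or unit of signal is named there or in the labels. Without read counts in the lists, the depth is unknown. All 8 deposited lists were on ce11, per the labels, with 63908 and 73476 ranked and 875 and 702 thresholded peaks in replicates 1 and 2. Of the 1345 peaks with the same coordinates in both thresholded series lists, all 1345 have the same signal.

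Members were found with Python 3.11.15, pandas 2.3.3 and numpy 2.4.6, and intervals are exact Clopper-Pearson 95% intervals (scipy 1.17.1). Peaks overlapped when they shared at least 1 bp. Genes came from Ensembl release 115. Location was assigned in the order promoter, exon, intron, other gene, intergenic. Copy number was counted over all 24-base words within 75 bases of a summit, on both strands, and in the 101-base windows for the printed sequences. Members and gene lists were chosen with earlier results of these data known, so no test was run and no p-value is given. Named members were, by rule, the 15 strongest conservative ones, the 3 strongest of the second list, up to 4 for each location and small RNA class, those at listed genes, those beside the start and the end, and the densest 50 kb. The overlap, location, motif and copy steps were tested on simulated data.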

Additional observations from a re-analysis of the deposited data

How the results depend on the processing

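Of 69 alternatives to the reported values, 42 were counted as staying near them, but the limit for this differed between results. A member density of 105 per Mb against 147 counted as near, whereas a replicate 1 weak-peak ratio of 1.36 against 1.34 did not. The count is therefore not a single measure of stability. Members were below the rest of II in promoter share under all 10 alternatives tried, in support by both replicates under all 8, and in small RNA gene share under all 7. Member density was 72.4 per Mb with scores at the cap alone, 40.4 to 51.1 without 1 replicate, 7.45 at 5 times and 1.60 at 10 times the local median. Its ratio to the rest of II was 5.64 to 6.22 without 1 replicate, and 1.78, 1.36, 1.33, 1.53 and 1.43 at floors of 3, 4, 5, 7 and 10 times, of which the floors of 2, 3, 4 and 7 were chosen after seeing the data. The promoter share of members was 39.7% with capped scores, 17.3% in a window of 500 bp upstream and 45.5% in one of 2000 bp (35.7 and 65.2% in the rest of II), and 38.2 to 47.9% without 1 replicate (51.0 to 56.4% in the rest of II). With capped scores, 23.5% of members were thresholded in both replicates and 6.62% lay near a small RNA gene. The weak-peak ratio of replicate 1 was 1.32 and 1.36 with the start moved 100 kb left and right, 1.38 over all ranked peaks and 1.38 over single-copy ones. That of replicate 2 was 1.37 with the start moved right, 1.39 over all and 1.41 over single-copy peaks. Member signal relative to local weak peaks was 0.645 and 0.635 times that of the rest of II in replicates 1 and 2, against 0.579 in the series lists. Taking the nearest 5′ end within 2000 bp gave 123 genes in place of 81. The cause of these shifts was not tested, other than that capped scores, single replicates and floors keep fewer peaks. No paired analysis was possible because there is 1 group. Unknown depth and the lack of an analysed control limit what the lists can show.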
